A study of Mus musculus with 9 samples.

Results

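A set of 10 neutrophil genes was followed on 9 single-color microarrays of mouse lung RNA, 4 from control and 5 from irradiated left lung. They were chosen by name as S100a8, S100a9, Retnlg, Ly6g, Csf3r, Mmp8, Ltf, Camp, Ngp and Elane. A probe was found through its RefSeq accession for 9 of the 10, out of 19698 genes represented on the arrays, and Ly6g was not among them. The mice were male C57BL/6 mice 10 weeks of age, anesthetized with zoletil and rompun for the irradiation of the left lung. The labels give neither the radiation dose nor the region or the time after irradiation of each array, so these 5 arrays may differ in all of them, which would widen their spread. The study's methods state that RNA of several experiments was pooled before labeling. The p-values therefore measure the spread between pools, and nothing was known here of the spread between single animals.

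Neutrophils are short-lived white blood cells that are made in the bone marrow and reach a tissue from the blood. They pack their killing proteins into granules in a fixed order while they mature. Azurophil granules come first and hold proteases such as neutrophil elastase, the product of Elane. Specific granules come next, with lactoferrin (Ltf), the cathelicidin precursor (Camp) and the neutrophilic granule protein (Ngp). Mmp8 encodes a granule collagenase. The messages for most granule proteins fade once the cell leaves the marrow, whereas S100a8, S100a9, Retnlg and the receptor for granulocyte colony-stimulating factor (Csf3r) are still expressed in circulating cells. The lung holds a large pool of neutrophils in its small vessels, and irradiated lung goes through inflammation before fibrosis.

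The stretches before the start sites are shown first for the pair of genes that moved most alike and for the pair with the lowest p-values. S100a8 and S100a9 encode the partners that form calprotectin, a calcium- and zinc-binding protein complex of the neutrophil cytosol, and lie beside each other on chromosome 3. Camp and Ngp lie on chromosome 9 and encode related proteins of the cathelicidin family. The sequences are the 250 bases before each start, from RefSeq on GRCm38.p6, at chr3:90668821-90669070 on the plus strand for S100a8, chr3:90695722-90695971 on the minus strand for S100a9, chr9:109849457-109849706 on the minus strand for Camp and chr9:110419558-110419807 on the plus strand for Ngp. Capitals mark matches on either strand to TTGCNNAA, a form of the site of the C/EBP factors that drive granulocyte development, and to TATAAA, the TATA box.
S100a8: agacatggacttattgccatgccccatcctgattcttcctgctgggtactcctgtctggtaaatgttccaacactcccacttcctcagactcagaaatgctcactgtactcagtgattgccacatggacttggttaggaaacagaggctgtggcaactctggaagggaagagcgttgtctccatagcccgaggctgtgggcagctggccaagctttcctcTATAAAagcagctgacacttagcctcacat
S100a9: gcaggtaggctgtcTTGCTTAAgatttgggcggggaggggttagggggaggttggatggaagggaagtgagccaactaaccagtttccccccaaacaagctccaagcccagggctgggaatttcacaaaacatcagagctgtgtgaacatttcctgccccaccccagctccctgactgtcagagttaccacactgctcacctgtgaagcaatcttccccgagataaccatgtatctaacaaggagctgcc
Camp: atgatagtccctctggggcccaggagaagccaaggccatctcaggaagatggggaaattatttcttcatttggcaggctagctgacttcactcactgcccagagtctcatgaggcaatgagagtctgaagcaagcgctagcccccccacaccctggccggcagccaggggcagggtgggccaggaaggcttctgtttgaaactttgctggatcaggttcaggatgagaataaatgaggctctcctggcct
Ngp: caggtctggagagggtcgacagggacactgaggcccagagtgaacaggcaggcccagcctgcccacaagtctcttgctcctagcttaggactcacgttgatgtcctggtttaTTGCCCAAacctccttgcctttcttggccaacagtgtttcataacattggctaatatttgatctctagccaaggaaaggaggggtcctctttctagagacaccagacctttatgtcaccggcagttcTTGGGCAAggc
S100a8 held the TATA box 30 to 25 bases before its start and no match to the C/EBP form. S100a9 held 1 C/EBP match, Ngp held 2, and Camp held neither motif. Of the 10 genes, 6 held the C/EBP form in this window (S100a9, Retnlg, Ly6g, Mmp8, Ltf and Ngp), against 9.56% of 32851 promoters of the same length. Ly6g has 2 start sites in the table and held the form before 1 of them, and it was counted once, whereas the share over all promoters counts each start site. GAGGAA, the core of the site of PU.1, was found for 6 of the 10, against 23.3% of promoters, and TATAAA for 2 of the 10, against 12.4%. No match to one motif overlapped a match to another in these 10 genes, and a match is a description of the sequence only.

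Each array held 44397 spots, of which 1377 were control spots, and the scanner software called 72.8% to 89.1% of the gene-probe spots well above background. Several arrays stood apart from the rest by genes of other tissues, in lists chosen after the values were seen. In mean log2 intensity relative to the controls, 6 skeletal muscle genes were at 4.2 on control 3 against -1.88 to -1.15 on the other controls, and 6 keratinocyte genes were at 1.41 there against -0.79 to -0.19. On irradiated 1, 6 cardiac muscle genes were at -5.67 against -0.43 to 0.39 on the other irradiated arrays. On control 1, 10 bone and cartilage genes were at 1.37 against -0.60 to -0.30 on the other controls, with Col10a1, a collagen of growth plate cartilage, at a log2 intensity of 9.58. Of the defining neutrophil genes outside the 9, Cxcr2, Mmp9 and Cd177 were well above background on all 9 arrays, as were the lung markers. Of the 10 other genes of azurophil granules and promyelocytes, 6 were so, and Ms4a3, Prss57, Bpi and Fcnb were well above background on at most 1 of 4 controls and 2 of 5 irradiated arrays.

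None of the 9 neutrophil genes passed an adjusted p under 0.05 between irradiated and control lung (limma, Benjamini-Hochberg adjustment over 39303 probes). Of 21 alternatives, 1 gave another count, and another of the 21, the stricter adjusted p of 0.01, could not have done so. The count changed when pairs of arrays that share scan position entered as a random block, with Ngp and Camp lower, where 7.38% of all probes passed. With the pairs as a fixed block neither passed (adjusted p = 0.0632 and 0.074). Without the blocks, 131 probes passed, 0.333% of those tested, with 75 higher (0.191%) and 56 lower (0.142%). At an unadjusted p under 0.05, Ngp and Camp were lower and no neutrophil gene was higher, where 4.41% of all probes were lower and 5.52% higher. The groups overlapped for all 9 genes, whereas 2.51% of all probes had every irradiated array above every control array and 1.65% had every one below. The log2 difference, irradiated minus control, was negative for 8 of the 9 with a median of -0.60, and 48.1% of all genes were negative with a median of 0.008. Fewer neutrophils and less of a message per cell cannot be told apart in RNA of whole tissue.

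**Figure D1:**
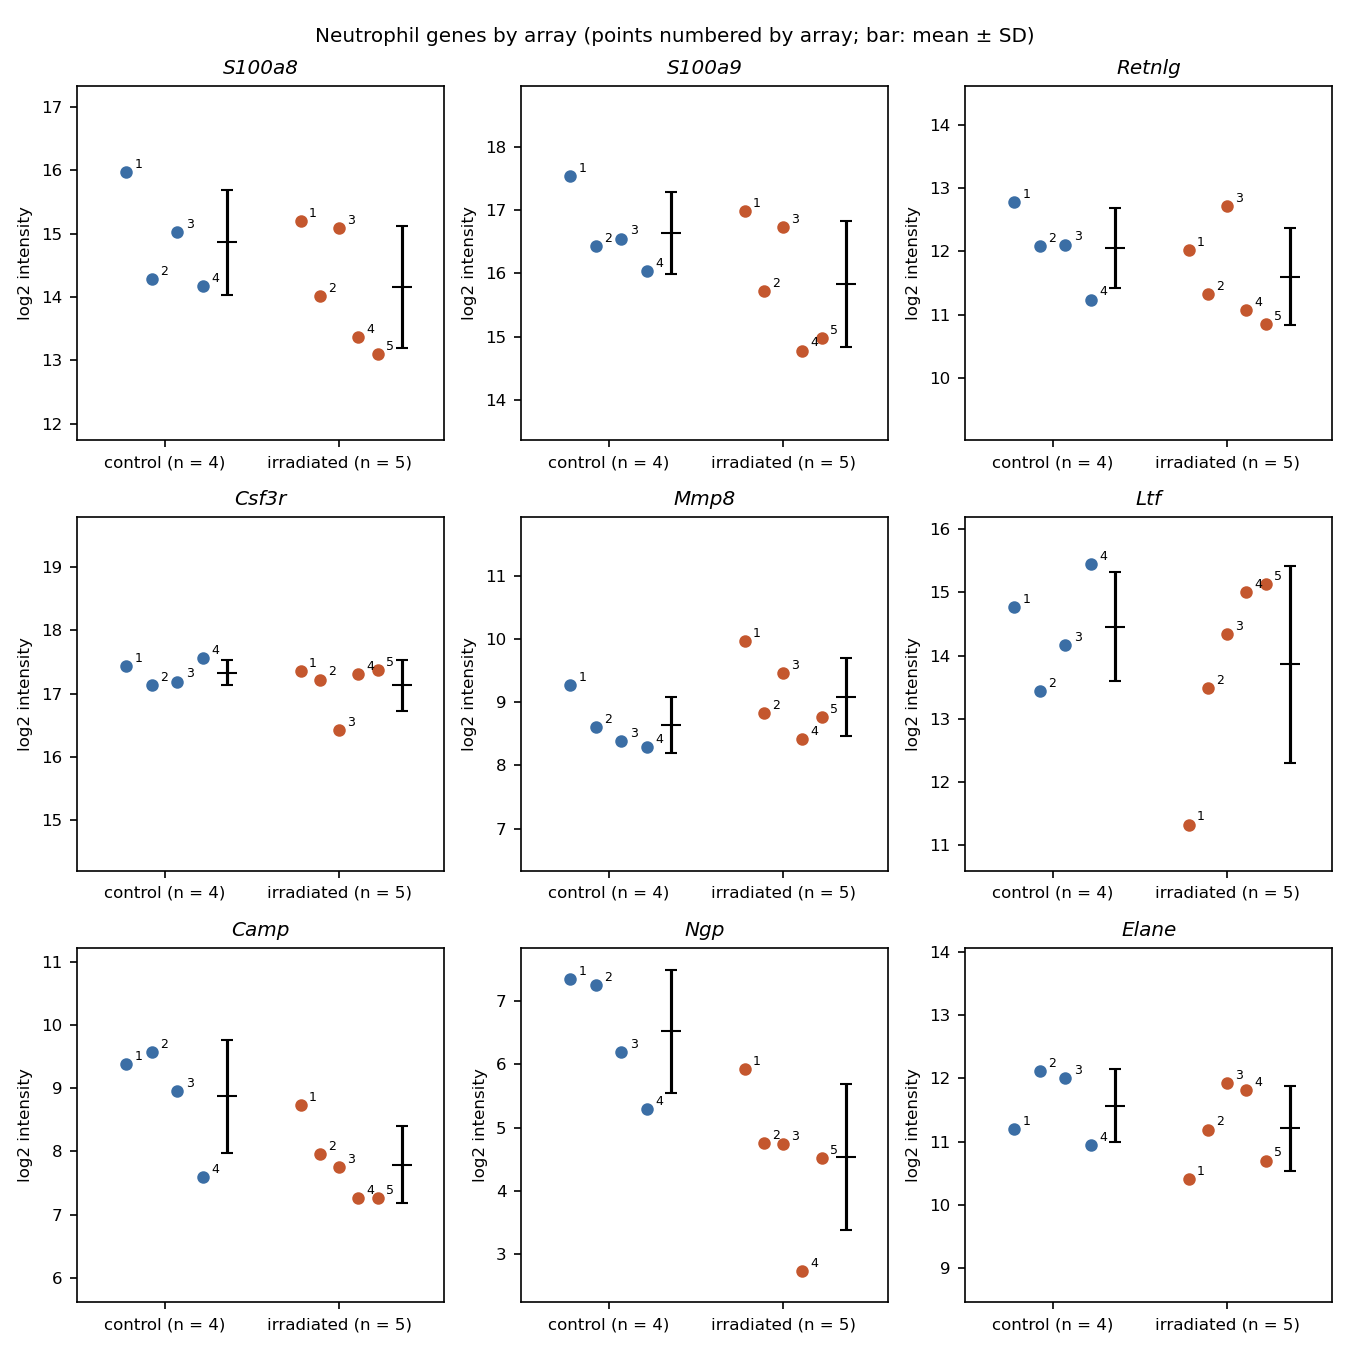
Log2 intensity (vertical axis, 5.6 units in every panel) of the 9 neutrophil genes on the 4 control (blue) and 5 irradiated (orange) arrays; points are arrays, numbered as labeled, and black bars give the mean and SD of each group. The groups overlap in every panel, and Ngp has the lowest irradiated mean relative to its controls.

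S100a8, S100a9 and Retnlg, which mature neutrophils keep expressing, were spread widely within each group. S100a8 had log2 intensities of 15.97, 14.28, 15.03 and 14.18 on controls 1 to 4 and of 15.20, 14.02, 15.09, 13.37 and 13.10 on irradiated 1 to 5. Control 1 was the highest of the 9 arrays, irradiated 4 and 5 were the lowest, and irradiated 1 and 3 lay within the range of the controls. The difference between the group means was -0.71 (SE 0.51, adjusted p = 0.745).

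S100a9, its partner in calprotectin, was at 17.54, 16.43, 16.55 and 16.03 on the controls and at 16.98, 15.72, 16.73, 14.78 and 14.98 on the irradiated arrays. The order of the arrays was nearly that of S100a8, with control 1 at the top and irradiated 4 and 5 at the bottom. The difference was -0.80 (SE 0.49, adjusted p = 0.672).

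Retnlg encodes a secreted resistin-like protein of neutrophils. Its values were 12.78, 12.08, 12.11 and 11.24 on the controls and 12.02, 11.33, 12.72, 11.08 and 10.85 on the irradiated arrays. Control 1 and irradiated 3 were the highest and irradiated 4 and 5 again the lowest, and the difference was -0.45 (SE 0.41, adjusted p = 0.817). Without control 1, the array with the bone and cartilage genes, the differences of these genes were smaller. They were -0.34 for S100a8, -0.50 for S100a9 and -0.21 for Retnlg. As each array was left out in turn, S100a8 ranged from -0.97 to -0.34, S100a9 from -1.08 to -0.50 and Retnlg from -0.73 to -0.21.

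Csf3r, the receptor through which granulocyte colony-stimulating factor keeps neutrophils alive and drives their production, did not follow the genes above. Its values were 17.44, 17.14, 17.19 and 17.56 on the controls and 17.35, 17.22, 16.42, 17.31 and 17.37 on the irradiated arrays. Its only probe had a control mean of 17.33 and a control SD of 0.20, against 16.64 and 0.64 for S100a9. Whether this bright and even signal comes from neutrophils was not tested. Irradiated 3 was the lowest of all 9 arrays for Csf3r but was among the highest for S100a8, S100a9 and Retnlg. The difference was -0.20 (SE 0.19, adjusted p = 0.831), and it was -0.02 (SE 0.11) without irradiated 3.

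Ngp, whose product is stored in specific granules, had the largest difference among the 9 genes on these values. Its log2 intensities were 7.35, 7.26, 6.19 and 5.30 on the controls and 5.93, 4.76, 4.74, 2.73 and 4.52 on the irradiated arrays. Only irradiated 1 lay within the range of the controls, and the other 4 irradiated arrays were below control 4, the lowest control. The signal was weak: the spot was called well above background on 4 of 4 control arrays and on 2 of 5 irradiated arrays, numbers 1 and 4. The difference was -1.99 (SE 0.62, adjusted p = 0.27 by limma). It was -0.75 (SE 0.22, adjusted p = 0.239) with normexp background correction and -0.78 (SE 0.37, adjusted p = 1) in the authors' normalized table, and in both the difference of Camp was larger, at -0.88 and -0.91. With the random block of scan pairs it passed the threshold (adjusted p = 0.0174).

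Camp encodes the precursor of the antimicrobial peptide CRAMP. It was at 9.38, 9.57, 8.95 and 7.59 on the controls and at 8.73, 7.96, 7.75, 7.26 and 7.27 on the irradiated arrays, all well above background. Control 4 was below 3 of the 5 irradiated arrays, and the other controls were above every irradiated array. The difference was -1.08 (SE 0.43, adjusted p = 0.414 by limma), and with the random block of scan pairs it passed the threshold (adjusted p = 0.0346). A second probe of Camp gave 8.39, 8.53, 8 and 6.91 on the controls and 7.87, 7.33, 6.96, 6.71 and 6.65 on the irradiated arrays, with a difference of -0.86 (SE 0.37, adjusted p = 0.468). Both probes placed control 4 apart from the other controls. The same array was the lowest control for 7 of the 9 neutrophil genes.

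Ltf, whose iron-binding product lactoferrin is made by glands and epithelia as well as by neutrophils, had the widest spread of the 9 among the irradiated arrays. It was at 14.77, 13.44, 14.17 and 15.45 on the controls and at 11.33, 13.49, 14.34, 15.01 and 15.13 on the irradiated arrays. Irradiated 1, the array with low cardiac genes, stood far below all others, and the remaining irradiated arrays spanned much of the range of the controls. The difference was -0.60 (SE 0.73, adjusted p = 0.879), and it turned to 0.03 without irradiated 1.

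Mmp8, the neutrophil collagenase, was the only gene of the 9 with a positive difference. It was at 9.27, 8.61, 8.39 and 8.29 on the controls and at 9.96, 8.83, 9.46, 8.42 and 8.76 on the irradiated arrays. Irradiated 1 and 3 were above every control, the other 3 were within the control range, and the difference was 0.45 (SE 0.32, adjusted p = 0.745). It was 0.23 (SE 0.28) without irradiated 1 and 0.66 (SE 0.33) without control 1. Elane, the azurophil protease, was at 11.20, 12.11, 12.01 and 10.95 on the controls and at 10.41, 11.19, 11.92, 11.82 and 10.70 on the irradiated arrays. Controls and irradiated arrays were intermingled, with irradiated 1 and 5 below the lowest control, and the difference was -0.36 (SE 0.36, adjusted p = 0.841). It ranged from -0.56 without control 4 to -0.16 without irradiated 1 as each array was left out. The only Elane probe had a control mean of 11.57. Among the other azurophil genes, Mpo and Prtn3 were far weaker, at 6.36 and 6.10, and Ctsc and Serpinb1a brighter, at 13.57 and 12.88. Whether the Elane signal comes from neutrophils was not tested.

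The median spread of these genes within a group exceeded that over all genes. Their median SD was 0.64 among the controls and 0.77 among the irradiated arrays, against 0.25 in both groups over all genes. Among the controls, control 1 was the highest for 5 of the 9. Among the irradiated arrays, number 1 was the highest for 5 and number 4 the lowest for 4.

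The profiles over the 9 arrays differed, here measured as the root mean square difference of log2 profiles, each centered on its own mean. The profiles were not scaled, so this measure counts the size of a gene's swings as well as their shape. S100a8 and S100a9 differed by 0.21 and S100a8 and Retnlg by 0.38. Camp and Ngp, the cathelicidin relatives, differed by 0.69, and Camp was nearer to S100a9, at 0.58, Retnlg, at 0.62, and S100a8, at 0.67. Csf3r, Ngp, Elane and Ltf were far from S100a8, at 0.98, 0.99, 1.03 and 1.70.

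Irradiated 4 and 5, the lowest arrays for S100a8 and S100a9, were also low for genes of red cells and platelets. Irradiated 2, which was below every control for S100a8 and S100a9 too, had a hemoglobin mean of 0.16. The mean of 4 hemoglobin genes, relative to the controls, was -0.72 and -0.69 on irradiated 4 and 5 and between 0.16 and 0.21 on irradiated 1 to 3. The controls were at 0.27, -0.81, 0.46 and 0.08, so control 2 was as low as irradiated 4 and 5. For 6 platelet genes, irradiated 4 and 5 were at -0.82 and -0.63, the other irradiated arrays at -0.39 to -0.06 and the controls at -0.17 to 0.29. All 4 hemoglobin genes and 5 of 6 platelet genes had a negative difference, and none passed the test. With the random block of scan pairs, in which 7.38% of all probes passed, the platelet genes Gp9 and Gp1ba fell, by 0.85 (SE 0.18, adjusted p = 0.0215) and 0.88 (SE 0.22, adjusted p = 0.043), and with the fixed block no platelet gene passed. The summed intensity of the hemoglobin genes was 928000 to 1628000 on the controls and 873200 to 1524000 on the irradiated arrays, and that of the platelet genes was 18200 to 23720 and 13740 to 21200. The part of blood content in the differences of the neutrophil genes was not tested.

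**Figure D2:**
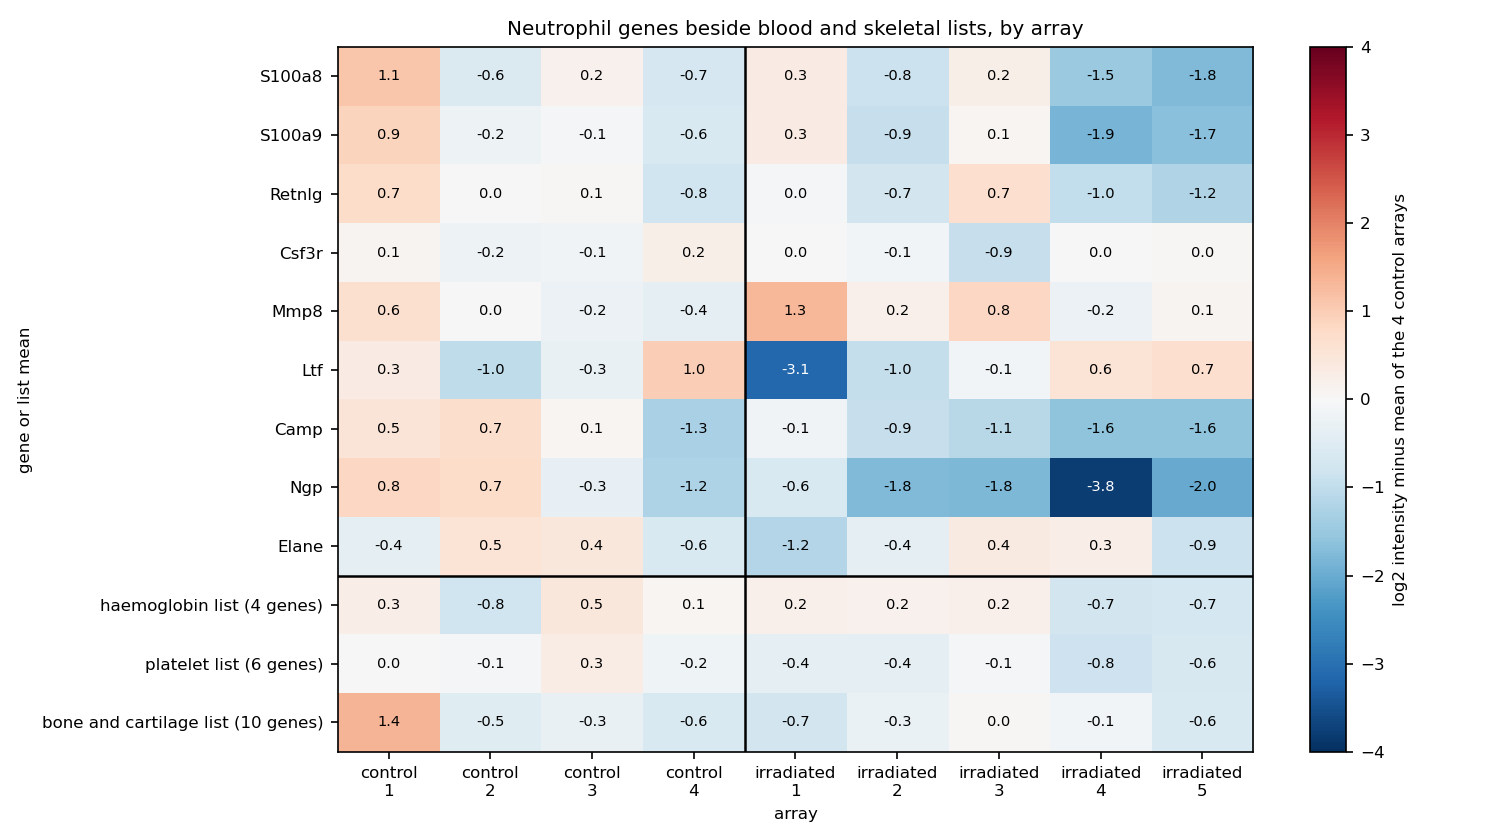
Log2 intensity minus the mean of the 4 control arrays (color and printed value) for the 9 neutrophil genes and, below the line, the means of the hemoglobin, platelet and bone and cartilage lists; columns are the 4 control and 5 irradiated arrays. Irradiated 4 and 5 are low for S100a8, S100a9, Retnlg, Camp and Ngp and for the blood lists, and control 1 is high for S100a8, S100a9 and the bone and cartilage list.

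The search for genes like S100a8 took in 15233 genes detected well above background throughout. Its nearest 5 were Stfa2 at a root mean square difference of 0.267, Stfa2l1 at 0.275, Cxcr2 at 0.369, Flt4 at 0.378 and Scrg1 at 0.394, where the profile of S100a8 itself had a root mean square of 0.876. Stfa2 and Stfa2l1 encode stefins, cytosolic protease inhibitors of mouse neutrophils, and Cxcr2 encodes the chemokine receptor that draws neutrophils out of the marrow. Stfa2 was at 10.40, 9.41, 9.89 and 9.03 on the controls and at 10.22, 8.74, 9.72, 8.22 and 8.48 on the irradiated arrays. Cxcr2 was at 10.56, 9.42, 8.95 and 8.45 on the controls and at 9.93, 8.97, 9.55, 8.21 and 8.12 on the irradiated arrays. Both had irradiated 4 and 5 at the bottom, as S100a8 did, and their differences were -0.61 (SE 0.43, adjusted p = 0.741) and -0.39 (SE 0.48, adjusted p = 0.881). Flt4, a receptor of lymphatic endothelium, is not known as a neutrophil gene.

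The profile of Ngp rests in part on values near the background, since its spot was not well above background on irradiated 2, 3 and 5. Its value on irradiated 4 was lower still, at 2.73. The nearest 5 were Slfn4 at 0.605, Upk2 at 0.755, Fgfbp1 at 0.762, Krt79 at 0.768 and Rhbg at 0.778, and the profile of Ngp had a root mean square of 1.372. Slfn4 is a schlafen gene of myeloid cells, and Upk2, Fgfbp1, Krt79 and Rhbg are known from epithelia. Slfn4 was at 9.70, 9.06, 8.46 and 7.99 on the controls and at 8.74, 8.17, 8.35, 6.36 and 7.03 on the irradiated arrays, with a difference of -1.07 (SE 0.51, adjusted p = 0.543). It had irradiated 4 at the bottom, as Ngp did. Rhbg, an ammonium transporter of epithelia, was lower on every irradiated than on every control array, with a difference of -1.49 (SE 0.26, adjusted p = 0.0512).

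Other neutrophil genes, grouped by where their products sit, did not pass the test either. Differences between lists were not tested, and over all genes 48.1% were lower. Of 10 other genes of azurophil granules and promyelocytes, 6 were higher and 4 lower with a median of 0.11. Mpo, the myeloperoxidase gene, was at 5.56 to 7.18 on the controls and 5.96 to 7.08 on the irradiated arrays, with a difference of 0.22 (SE 0.37, adjusted p = 0.924). Among the genes named by rule, Ctsc, the activator of the azurophil proteases, was at 0.25 (SE 0.21), Prtn3, proteinase 3, at 0.22 (SE 0.17) and Serpinb1a, an elastase inhibitor, at -0.01 (SE 0.16). None of these differences approached the threshold, with adjusted p from 0.763 to 0.998.

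Of 12 other genes of the later granules, 8 were higher and 4 lower, with a median of 0.37. Cd177, a surface glycoprotein stored in specific granules, was at 7.49, 7.65, 6.88 and 8.18 on the controls and at 8.2, 10.09, 11.31, 11.53 and 11.53 on the irradiated arrays. Every irradiated array was above every control, irradiated 1 by only a little, and the difference was 2.98 (SE 0.65, adjusted p = 0.104 by limma). Lcn2, the siderophore-binding lipocalin of specific granules, is also made by stressed epithelium. Its values were 15.56, 14.93, 14.43 and 13.83 on the controls and 15.41, 17.11, 16.66, 16.60 and 16.35 on the irradiated arrays. Irradiated 1 lay among the controls and the other 4 above them, and the difference was 1.74 (SE 0.38, adjusted p = 0.112). Without irradiated 1, where 1.21% of all probes passed, Cd177 rose by 3.56 (SE 0.37, adjusted p = 0.00815 by limma) and Lcn2 by 1.99 (SE 0.33, adjusted p = 0.0299). Anxa1, annexin A1, was higher on every irradiated array, at 16.12 to 16.49 against 15.81 to 16.04, with a difference of 0.44 (SE 0.09, adjusted p = 0.0893). Itgam, the integrin chain CD11b, was the lowest of the list at -0.51 (SE 0.17, adjusted p = 0.288). The brightest, Chil3 and Hp, were at 0.68 (SE 0.36) and -0.16 (SE 0.16). In the random block fit, where 7.38% of all probes passed, Anxa1 passed at 0.43 (SE 0.07, adjusted p = 0.00786). Itgam passed there in the other direction, at -0.47 (SE 0.12, adjusted p = 0.0415). Lcn2 and Cd177 also passed in it, both higher. Neither Anxa1 nor Itgam passed in the fixed block fit.

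The 14 other surface receptors were split, with 6 higher, 8 lower and a median of -0.06. Ptafr, the receptor of platelet-activating factor, was higher on every irradiated array, at 7.66 to 8.52 against 6.86 to 7.63, with a difference of 0.77 (SE 0.23, adjusted p = 0.245), and it passed with the scan pairs as a fixed block (adjusted p = 0.0277) or a random block (adjusted p = 0.00761). Fcgr4, an Fc receptor, was at 0.55 (SE 0.21). Trem1, an activating receptor of myeloid cells, was at -0.05 (SE 0.29) and Mrgpra2b at -0.89 (SE 0.34, adjusted p = 0.392). Mrgpra2b passed with the random block, at -0.95 (SE 0.21, adjusted p = 0.0257), and not with the fixed block. Of 11 other cytosolic and secreted genes of mature neutrophils, 3 were higher and 8 lower with a median of -0.35. The 3 were Lrg1 at 1.12 (SE 0.44, adjusted p = 0.405, and 1.56 with adjusted p = 0.00768 without irradiated 1), Wfdc21 at 1.09 (SE 0.27, adjusted p = 0.15) and Slpi at 0.52 (SE 0.41). All 3 are also made outside neutrophils, Slpi by airway epithelium and Lrg1 by vessels and liver. Lrg1 passed with the fixed block (adjusted p = 0.0273) and the random block (adjusted p = 0.0233). Wfdc21 passed with the random block, at 1.06 (SE 0.20, adjusted p = 0.0142), and not with the fixed block. The lowest of the list was Asprv1, a skin protease also found in neutrophils, at -1.74 (SE 0.98), with 13.03 on control 3, the array with keratinocyte and skeletal muscle genes, and 6.89 to 9.08 on all others. Without control 3 it was at -0.54 (SE 0.49).

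**Figure D3:**
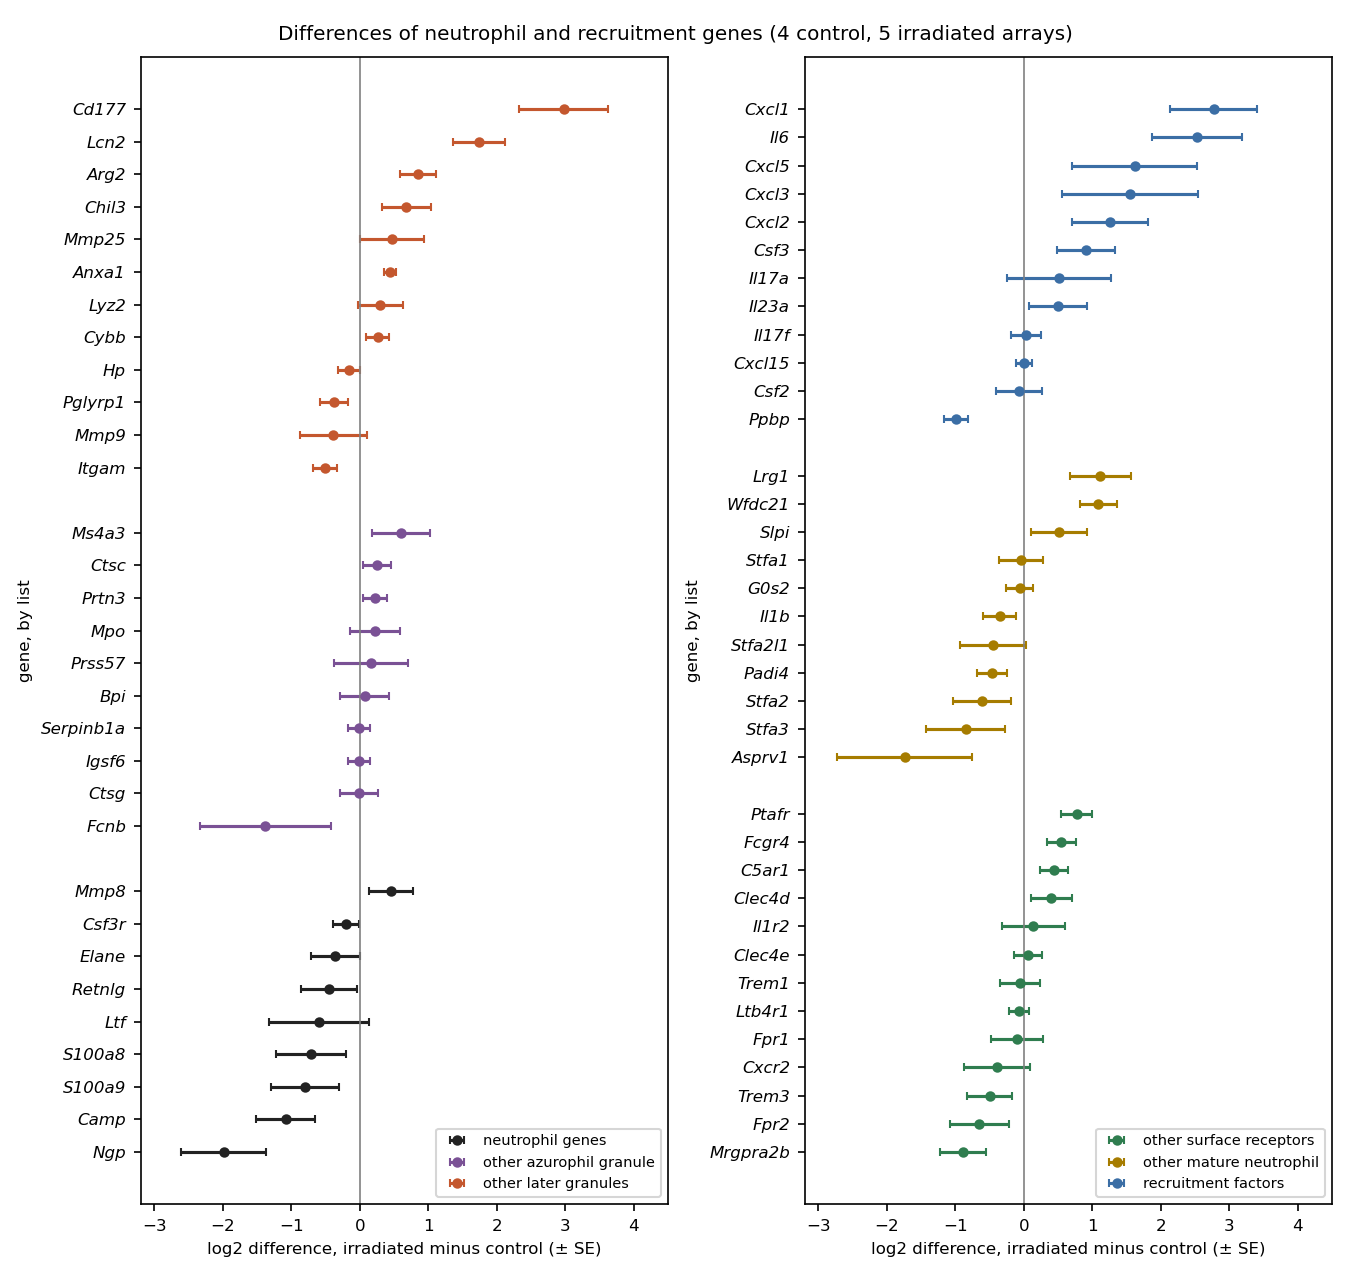
Log2 difference, irradiated minus control (horizontal axis), with its SE for the 9 neutrophil genes, the other granule genes, surface receptors and mature neutrophil genes, and the recruitment factors, each list in its own color, with 1 surface receptor left out. The neutrophil genes lie between -1.99 and 0.45, whereas Cd177, Cxcl1 and Il6 lie above 2.5; no gene shown passed the threshold.

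Signals that call neutrophils were tested alongside. Of 12 growth factors and chemoattractants, 9 were higher and 3 lower, with a median of 0.71, and none passed the test. Cxcl1, a ligand of Cxcr2, was at 6.51, 6.08, 5.32 and 5.28 on the controls and at 6.24, 9.19, 8.42, 9.28 and 9.71 on the irradiated arrays. Irradiated 1 was within the control range and the other 4 far above it, and the difference was 2.77 (SE 0.64, adjusted p = 0.127). Il6, the acute-phase cytokine, was at 7.24, 6.66, 6.50 and 7.62 on the controls and at 7.01, 9.48, 10.44, 10.43 and 10.30 on the irradiated arrays, with a difference of 2.53 (SE 0.66, adjusted p = 0.178). The same array was the exception for both, and without it Cxcl1 rose by 3.35 (SE 0.35, adjusted p = 0.00815) and Il6 by 3.16 (SE 0.30, adjusted p = 0.00714). Csf3, the ligand of Csf3r, was well above background on 0 of 4 control arrays and 2 of 5 irradiated arrays. Ppbp, a Cxcr2 ligand stored in platelets, was at 12.60, 12.75, 13.06 and 12.54 on the controls and at 11.78, 11.96, 12.11, 11.31 and 11.57 on the irradiated arrays. It was lower on every irradiated array and came nearest to the threshold, at -0.99 (SE 0.17, adjusted p = 0.0513). It fell by 0.99 (adjusted p = 0.0346) when only probes above background on all 9 arrays were tested, of which 0.6% passed. Cxcl15, the lung chemokine of alveolar epithelium and the brightest of the list, was at 0 (SE 0.12).

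Of 8 transcription factors of granulocyte development, 6 were higher and 2 lower with a median of 0.17. Cebpd, a C/EBP factor that responds to inflammation, was above every control on every irradiated array, at 16.11 to 16.85 against 15.72 to 16.02, with a difference of 0.64 (SE 0.14, adjusted p = 0.102). Cebpb was at 0.23 (SE 0.19), Gfi1 at 0.40 (SE 0.27) and Cebpa, which starts the granulocyte program, at -0.27 (SE 0.21). With the scan pairs as a fixed block, Cebpa fell by 0.42 (SE 0.07, adjusted p = 0.0469). With the random block, Cebpd rose by 0.62 (SE 0.11, adjusted p = 0.0126).

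Markers of other cells that share genes with neutrophils were read beside them, and their part in the differences was not tested. Of 11 macrophage markers, 8 were higher with a median of 0.60, including C1qb at 0.98 (SE 0.33, adjusted p = 0.304) and C1qa at 0.94 (SE 0.34). The other 3 were lower, with Fabp1 at -1.85 (SE 0.81, adjusted p = 0.486), Marco, a scavenger receptor, at -0.63 and Ear2 at -0.30 (SE 0.36). C1qb and C1qa passed with the scan pairs as a fixed block (both adjusted p = 0.0252) and as a random block (adjusted p = 0.0118 and 0.0147). Fabp1 passed in the other direction with the random block, at -2.21 (SE 0.56, adjusted p = 0.0425), and not with the fixed block. The summed intensity of the 11 markers was 88010 to 143300 on the controls and 107200 to 151000 on the irradiated arrays. Of 7 monocyte markers, 2 were higher and 5 lower with a median of -0.13, and Nr4a1 was lowest at -0.94 (SE 0.29, adjusted p = 0.255). F13a1 was lower on every irradiated than on every control array, at -0.50 (SE 0.10, adjusted p = 0.0763). With the random block Nr4a1 passed at -0.89 (SE 0.20, adjusted p = 0.0246) and F13a1 at -0.49 (SE 0.07, adjusted p = 0.00588). Neither passed with the fixed block. Of 7 eosinophil markers, 6 were lower with a median of -0.24, and the defining Epx was not well above background on any array. Of 9 genes listed as erythroid precursor markers, 6 were lower with a median of -0.42, and whether their signal came from bone marrow was not tested. Among these markers, 5 were well above background on all 9 arrays, and Rhag was so on none. The brightest were Hemgn, at a mean log2 intensity of 14.99 on the controls and 15.11 on the irradiated arrays, and Alas2, at 13.98 and 13.30. Of 7 mast cell and basophil markers, 2 were higher and 5 lower with a median of -0.22, and of 10 bone and cartilage markers, 3 were higher and 7 lower with a median of -0.47. The 9 lung epithelium and endothelium markers had a median of 0.01, and Sftpc, the surfactant protein of alveolar type II cells, was at 0.01 (SE 0.07).

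Arrays of both groups shared technical features. By the vertical position of the first spot on the scan, 4 pairs of a control and an irradiated array were each other's nearest, and the members of a pair also had close local background, with medians of 27 and 25.5, 43.5 and 45.5, 36 and 35, and 24 and 24. The pairs were control 1 with irradiated 2, control 2 with irradiated 3, control 3 with irradiated 4 and control 4 with irradiated 5. Irradiated 1 had no partner. The labels do not say what these pairs are.

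Within the pairs, Camp, Ngp and Elane were lower on the irradiated array in 4 of 4. For Ngp the within-pair log2 differences were -2.59, -2.52, -3.46 and -0.79, and for Camp they were -1.41, -1.83, -1.69 and -0.32. Those of Elane were small, between -0.25 and -0.01. The Ngp spot was not well above background on irradiated 2, 3 and 5, so its differences in their pairs rest on values near the background. On irradiated 4 the spot was called well above background, but its value there, 2.73, was the lowest of the 9 arrays. Epx and Rhag, not well above background on any array, were at 2.54 and 2.44 on irradiated 4. The difference of -3.46 therefore also rests on a value near the background. S100a8 was lower in 3 of 4, at -1.95, 0.81, -1.66 and -1.08, and S100a9 at -1.82, 0.30, -1.77 and -1.05. The pair of control 2 and irradiated 3 was the exception for both, and for Retnlg at 0.65. Mmp8 was lower in 1 of 4 and Ltf in 2 of 4.

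With the pair as a fixed block, 1105 probes passed (2.81%), and no neutrophil gene did, with Ngp at -2.34 (SE 0.44, adjusted p = 0.0632 by limma) and Camp at -1.31 (SE 0.27, adjusted p = 0.074). With the pair as a random block, 2899 probes passed (7.38%) and 2 of the 9 neutrophil genes fell, Ngp by 2.20 (SE 0.44, adjusted p = 0.0174) and Camp by 1.22 (SE 0.29, adjusted p = 0.0346). In the fixed block fit, Cd177 rose by 3.56 (SE 0.33, adjusted p = 0.0252), Lcn2 by 1.99 (SE 0.17, adjusted p = 0.0252), Cxcl1 by 3.35 (SE 0.39, adjusted p = 0.0318) and Il6 by 3.16 (SE 0.32, adjusted p = 0.0273). Of the 14 genes of the other lists that passed in it, 13 were higher and 1 lower, Cebpa at -0.42 (SE 0.07, adjusted p = 0.0469). Of these 14, 5 were macrophage markers, all higher, with C1qb at 1.22, C1qa at 1.18, C1qc at 1.14, Adgre1 at 0.86 and Mertk at 0.36. Irradiated 1, which has no partner, does not inform the difference in the fixed block fit, whose differences therefore equal those without that array. Without irradiated 1 and with no block, Ngp was at -2.34 (SE 0.59, adjusted p = 0.118) and Camp at -1.31 (SE 0.41, adjusted p = 0.224).

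**Figure D4:**
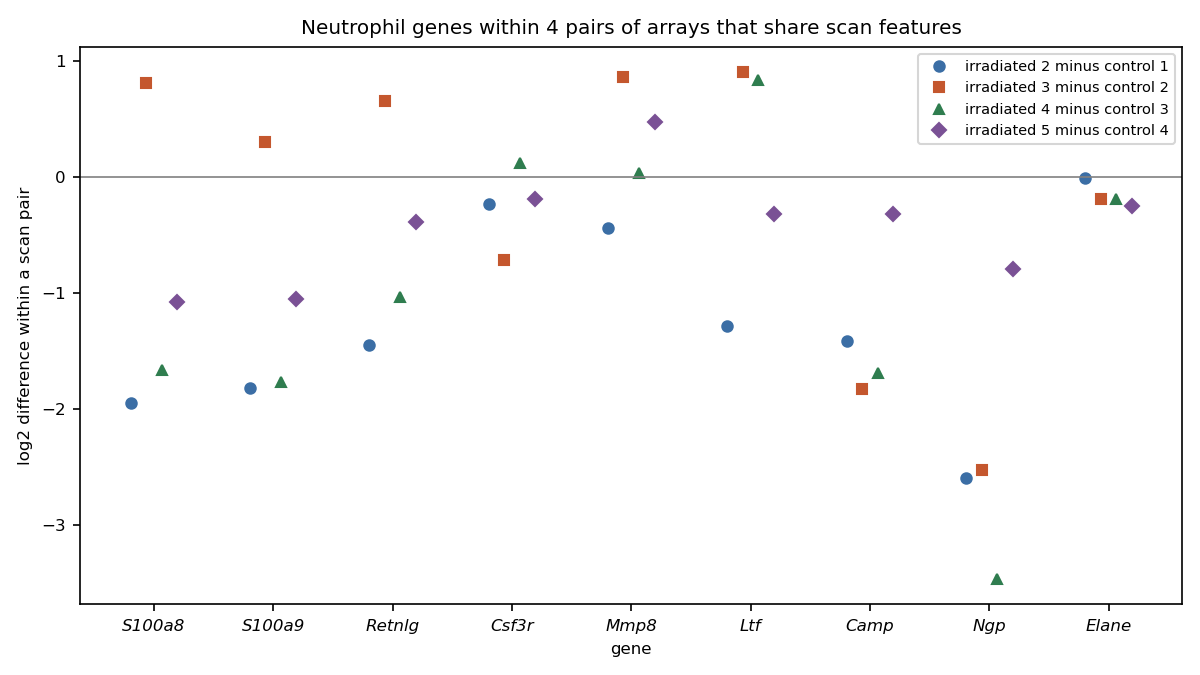
Log2 difference, irradiated minus control (vertical axis), within each of the 4 pairs of arrays that share scan position, for the 9 neutrophil genes; each symbol is a pair. Camp and Ngp are below 0 in all 4 pairs, and S100a8, S100a9 and Retnlg are above 0 in the pair of control 2 and irradiated 3 alone.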

How the data were processed

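RNA of control and irradiated left lung was hybridized to 9 single-color arrays. For each array the authors deposited scanner intensity values, background-corrected but not normalized between arrays, and a table of quantile-normalized intensity values that is empty for weak spots. The label is given as Cy5 and the columns are those of the green channel. Spot numbers were taken from scan position, which gave a rank correlation of 1 with the table on every array. Outlier and control spots were removed, probes brighter than 1.4 times the local background on at least 4 arrays were kept (39303 of 39429), and log2 processed signals were quantile normalized. Symbols came from RefSeq (GRCm38.p6) for 26055 probes (66.1%), and each gene was read on its brightest probe.

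Groups were compared with limma 3.58.1 (R 4.3.3), using no covariate, a variance trend on intensity and Benjamini-Hochberg adjustment, and the fit was tested on simulated data. Alternatives changed the background correction, scaling, filter, trend, threshold, weights, blocks, probe choice and the table, or left out each array. Named genes were drawn, per list, from those past the threshold, the 2 brightest, the 2 largest rises and the largest fall among detected genes. The 5 nearest profiles to S100a8 and Ngp were named too. Mpo, Ms4a3, Prss57, Bpi, Fcnb, Anxa1, Csf3, Marco, F13a1 and Col10a1 were added after values were seen. Mmp9, Epx and Rhag were named for their detection alone. The members and lists were chosen with earlier results of these data known. The number of arrays limits the precision. A gene of the surface receptor list is counted there but not reported here.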

Additional observations from a re-analysis of the deposited data

Results flagged for a closer look

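Dixon's criterion was applied to 172 sets of values, those of the neutrophil genes, of the genes named by rule from the other lists and of the list means but not of every gene of the lists, each set from the controls or from the irradiated arrays, and 11 of them (6.4%) had 1 distant array. By chance about 5% would. Of the neutrophil genes this was so only for Csf3r, whose log2 intensity was 16.42 on irradiated 3 against 17.22 to 17.37 on the other irradiated arrays. Irradiated 1 was apart for 3 of the genes named by rule, with Lrg1 at 13.66 against 15.75 to 15.93, Il6 at 7.01 against 9.48 to 10.44 and Gfi1 at 8.07 against 8.98 to 9.13. Ccr2, a monocyte receptor, was at 12.12 on irradiated 2 against 10.97 to 11.22, and Hba-a2 was at 18.89 on irradiated 4 against 19.14 to 19.23. Control 2 was apart for Serpinb1a at 12.40 against 13 to 13.12, for the mast cell gene Cpa3 at 6.06 against 8.06 to 8.39 and for Hba-a1 at 17.27 against 18.64 to 18.78. Control 1 was apart for the mean of the bone and cartilage list at 1.37 against -0.60 to -0.30 and for that of the lung list at 0.15 against -0.07 to -0.04. These sets share arrays, so these are not independent, and no cause was tested.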

How the results depend on the processing

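The 9 neutrophil genes stayed short of the threshold in 20 of 21 alternatives, the exception being the scan pair as a random block with 2 genes lower. The stricter adjusted p of 0.01 is among the 20 and uses the main fit, so it could only give the same count. Their median difference stayed negative, between -0.85 and -0.45, with 7 or 8 of the 9 lower. Adjusted p ranged from 0.0174 to 1 for Ngp and from 0.0346 to 0.862 for Camp. Ltf turned to 0.03 without irradiated 1 and to 0.03 with the scan pair as a fixed block, and it ranged from -0.94 to 0.03 as each array was left out. The number of all probes past the threshold was 131, and it became 198 with the filter on all 9 arrays, 44 with the authors' table, 44 with no trend in the variance, 5 at the stricter adjusted p of 0.01, 1105 with the fixed and 2899 with the random scan pair block. It ranged from 5 (without control 3) to 476 (without irradiated 1) as each array was left out. The share of lower calls was 42.7% in the main fit, 58.1% with scaling to the 75th percentile, 75% in the authors' table, 29.5% with no trend, 30.8% with averaged probes, 20% at the stricter adjusted p and 8.7% to 56.5% as each array was left out. Of 137 genes of the other lists, 0 passed the threshold in the main fit and 2 when all probes of each gene were averaged. With the filter on all 9 arrays 1 of 124 passed. With the fixed scan pair block 14 of 137 passed and with the random block 27 of 137, where 2.81% and 7.38% of all probes did. As each array was left out, 0 to 8 of 137 passed, the 8 without irradiated 1, where 1.21% of all probes did. Without irradiated 1 these 8 were Lcn2, Cd177, Lrg1, Cxcl1, Il6, Adgre1 and C1qc, higher, and Ppbp, lower. Over all probes, replicate numbers did not pair the arrays, with correlations of deviations from -0.167 to 0.062 over the 4 numbers. A replicate block left 1 probe past the threshold, no neutrophil gene. It did narrow the SE of S100a8 to 0.17 (difference -0.45), of S100a9 to 0.22 (-0.59) and of Ngp to 0.32 (-1.99). In it 5 of the 9 neutrophil genes had an unadjusted p under 0.05 by limma, 4 of them lower, against 2 in the main fit. Over all probes 3264 of 39303 did so, against 3906 in the main fit. The cause of these shifts was not tested. The Ngp spot was well above background on 2 of 5 irradiated arrays.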
